A study of Mus musculus with 12 samples.

Results

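Respiratory complexes II to V are the complexes of mitochondrial oxidative phosphorylation other than complex I: 3 of the electron transport chain and the ATP synthase. The genes described here were chosen by symbol: those beginning with Sdh followed by a, b, c or d, with Uqcr, with Cox followed by a digit, or with Atp5, plus Cyc1 and Cycs. Of the 20259 genes with an array row of their own, 55 met this rule. They comprised 8 genes of complex II, 9 of complex III, cytochrome c, 23 of complex IV and 14 of complex V. Where a gene had several rows, the row with the highest mean over the 12 arrays was used, which concerned 15 of the genes. A gene was tested if, on 3 or more arrays, its signal exceeded the 25th percentile of the named genes. The testis isoforms Cox7b2 and Cox8c did not pass this floor, so 53 of the 55 genes were among the 15896 genes tested. The symbols cover nuclear genes of mitochondrial proteins only.

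RNA was measured on arrays of interscapular brown adipose tissue, the main thermogenic fat depot of the mouse, from 12 female C57BL/6 mice aged 12 weeks. All mice carried floxed Cpt2 alleles (Cpt2f/f) and had been held for 2 weeks at 30 °C. Knockout (KO) mice also carried Cre driven by the adiponectin promoter, which is active in adipocytes, so that other cells of the depot keep their Cpt2 alleles. Wild-type (WT) mice were Cpt2f/f without Cre. Cpt2 encodes the inner-membrane enzyme that returns long-chain acyl groups to coenzyme A for fatty acid oxidation inside the mitochondrion. Each mouse received an intraperitoneal injection, either CL316243 at 10 mg/kg, an agonist of the beta-3 adrenergic receptor, or saline, and tissue was taken 3 h later. There were 3 mice in each of the 4 groups: KO CL316243, KO saline, WT CL316243 and WT saline. The study asked what loss of Cpt2 does to gene expression in this tissue with and without adrenergic stimulation.

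Complex II (succinate dehydrogenase) passes electrons from succinate to ubiquinone, complex III (the cytochrome bc1 complex) passes them from ubiquinol to cytochrome c, and complex IV (cytochrome c oxidase) passes them from cytochrome c to oxygen. Complexes III and IV pump protons, and complex V (ATP synthase) uses the proton gradient to make ATP. In brown fat the uncoupling protein Ucp1 lets protons return without passing complex V, so that respiration yields heat, and brown adipocyte mitochondria are rich in the electron transport chain relative to ATP synthase. Several subunits of complex IV exist as tissue isoforms from different genes.

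Signals are given as deposited, on a log2 scale, and differences are differences of log2 group means ± SE with n = 3 mice per group. A gene is called changed at an adjusted p under 0.05 in limma, with Benjamini-Hochberg adjustment over all 15896 tested genes. Signals of different genes come from different probes and are not compared with each other. Cpt2 itself had signals of 7.91, 7.87 and 7.92 in KO CL316243 mice, 8.06, 8.20 and 8.06 in KO saline mice, 8.60, 8.83 and 8.52 in WT CL316243 mice and 8.82, 8.99 and 8.75 in WT saline mice, and the KO minus WT difference was -0.75 ± 0.10 (adjusted p = 0.00207) in saline mice and -0.75 ± 0.10 (adjusted p = 0.000386) in CL316243 mice. The brown fat protein Ucp1 was at 10.69, 11.70 and 11.90 in KO CL316243 mice, 8.39, 12.29 and 11.47 in KO saline mice, 13.59, 13.68 and 13.60 in WT CL316243 mice and 12.60, 12.94 and 12.07 in WT saline mice. KO saline array 1 stood apart with the lowest Ucp1 signal of the 12, and it was also the lowest of its group for 42 of the 53 tested genes of complexes II to V. KO saline array 2 was the highest of its group for 44 of them. Markers of the depot's cell types also moved with genotype. All 8 fibroblast markers were higher in KO mice in both comparisons, as were 7 of 9 macrophage markers after saline and 9 of 9 after CL316243. The mean centred signal of the fibroblast markers ranged over 0.43 to 0.60 in KO CL316243 mice, 0.093 to 0.81 in KO saline mice, -0.65 to -0.44 in WT CL316243 mice and -0.65 to -0.40 in WT saline mice. That of the macrophage markers ranged over 0.38 to 0.64 in KO CL316243 mice, 0.14 to 0.53 in KO saline mice, -0.64 to -0.42 in WT CL316243 mice and -0.47 to -0.14 in WT saline mice.

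Of 11 tested brown adipocyte markers, 4 were lower in KO mice after saline and 8 after CL316243. Of 8 general adipocyte markers 2 were higher and 0 lower after saline, and 2 were higher and 1 lower after CL316243. Over all tested genes 6.19% were called lower and 5.44% higher after saline, and 14.8% and 14.7% after CL316243. The brown adipocyte markers themselves responded to CL316243 within 3 h. It raised 5 and lowered 0 of the 11 in WT mice, and raised 1 and lowered 5 in KO mice. In the interaction 4 of the 11 were called lower. The mean centred signal of the brown adipocyte markers ranged over -0.76 to -0.58 in KO CL316243 mice, -1.09 to -0.073 in KO saline mice, 0.98 to 1.12 in WT CL316243 mice and -0.083 to 0.30 in WT saline mice. Skeletal muscle markers varied widely between mice of the same group, and 0 of 25 were called in limma in either comparison of the genotypes (at an unadjusted p under 0.05, 0 after saline and 1, higher, after CL316243). Their median difference, KO minus WT, was 0.19 after saline and 1.65 after CL316243, where the estimate was above 0 for 25 of 25. In bulk tissue, fewer cells of a type and less RNA per cell cannot be told apart, and the part of these shifts in the results below was not tested beyond the values given.

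Genes of complexes II to V were lower in brown fat of KO mice than of WT mice, under both treatments and in every complex. After saline 31 of the 53 tested genes were called lower, against a background of 6.19% of all tested genes called lower. None was called higher (0 by limma; 43 lower and 0 higher at an unadjusted p under 0.05), where 5.44% of all tested genes were. After CL316243 44 of 53 were called lower, against 14.8% of all tested genes, and 0 were called higher, against 14.7% (44 lower and 1 higher at an unadjusted p under 0.05). The median difference over the 53 genes, KO minus WT, was -0.44 after saline and -0.65 after CL316243, where the medians over all tested genes were -0.055 and -0.042. On a linear scale these medians mean that the signal in KO mice fell by 26.3% after saline and fell by 36.1% after CL316243, relative to WT mice. Centring each array on its median changed the share of calls over all tested genes that were higher after CL316243 (35.7%, against 49.7% as deposited), and left 44 of the 53 genes called lower.

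The 2 genotype comparisons share no arrays, but the fit of all arrays gives them the same variance estimate per gene. Their calls are therefore not independent. Leaving out WT CL316243 array 2 moved the saline count from 31 to 23, and fitting the 2 saline groups alone gave 4. Of the genes called lower in the fit of all arrays, 29 were called in both comparisons. These were 29 of the 31 called after saline and 29 of the 44 called after CL316243. A further 15 passed the threshold after CL316243 and not after saline, and 2, Cox15 and Atp5g3, after saline and not after CL316243. The difference between the comparisons is the interaction given below, which was called for none of them. The 7 genes called in neither were Sdhaf2, Sdhaf3, Cox19, Cox4i2, Cox6a2, Atp5g1 and Atp5l. The 3 KO arrays lay below the 3 WT arrays for 38 genes after saline, against 22.7% of all tested genes, and for 44 genes after CL316243, against 23.2%. For 28 of the 29 genes called in both comparisons the groups did not overlap in either. These genes were picked by calls on the same arrays, so this count is no separate support. Of the genes called lower, 6 had an estimated decrease of at least 2-fold after CL316243 (Cyc1, Uqcr11, Uqcrfs1, Cox5b, Cox8b and Atp5md) and 0 after saline. The calls were made against no difference, and a 2-fold decrease was not itself tested.

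**Figure D1:**
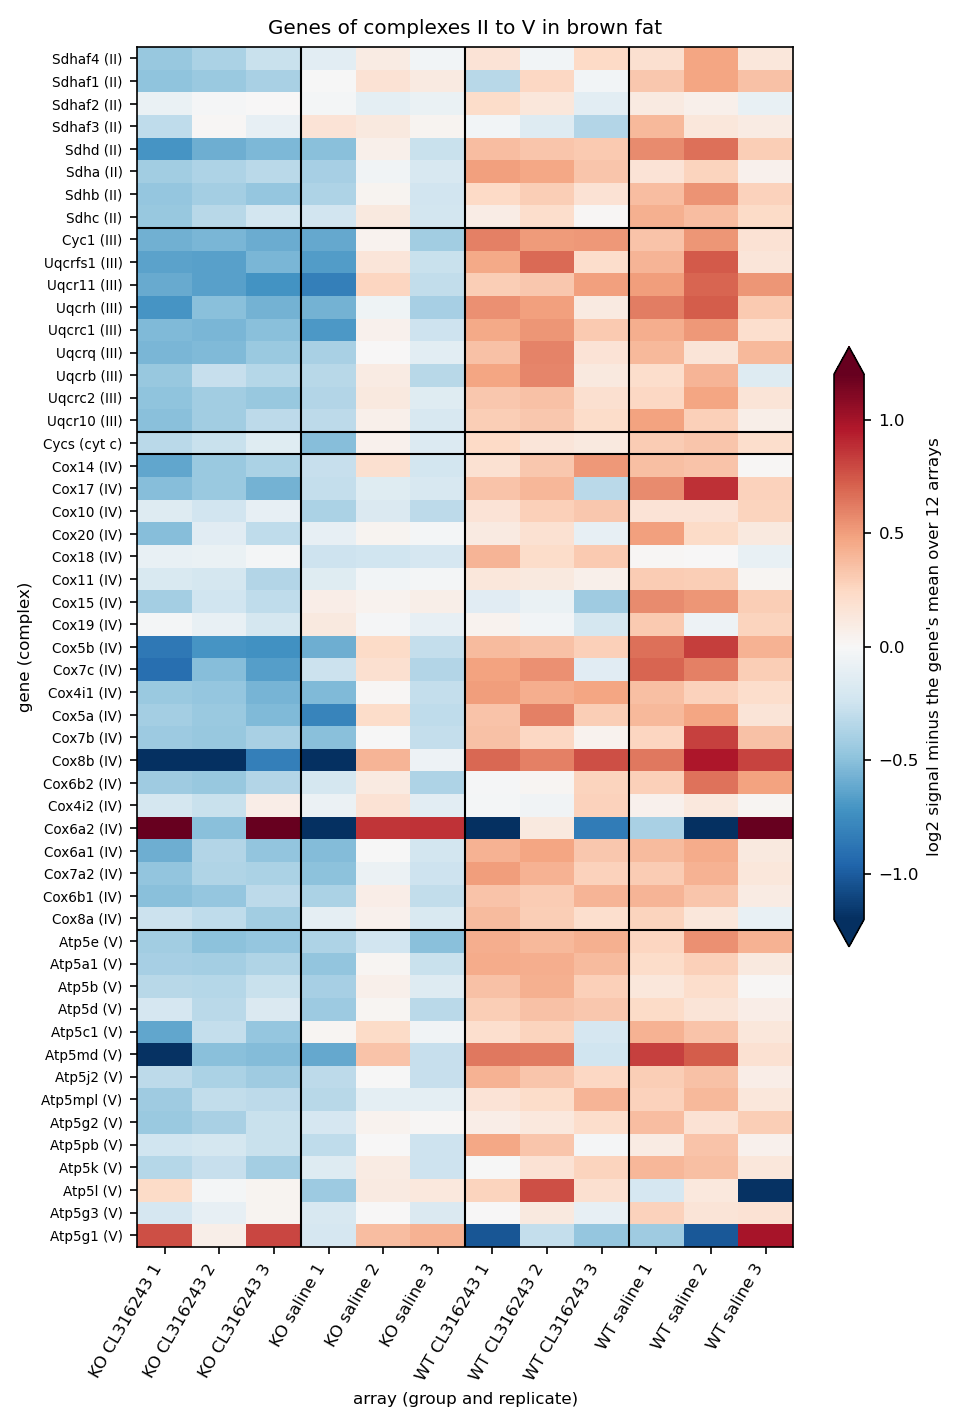
Log2 signal of each of the 53 tested genes in each of the 12 arrays, minus that gene's mean over the 12 arrays (rows are genes by complex, columns are arrays by group). The 3 KO CL316243 arrays are low for most genes of every complex, KO saline array 1 is low and array 2 close to the mean, and Cox6a2 and Atp5g1 follow another pattern.

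The saline count depended on single arrays. Without KO saline array 1 the count fell to 7 genes while the median difference was -0.37, and without KO saline array 3 or WT saline array 1 it was also 7. Without WT saline array 2 it was 12, and in a fit of the 2 saline groups alone it was 4. After CL316243 the count of genes called lower stayed between 37 and 44 whichever array was left out, with 0 or 1 called higher. Per array, the median centred signal over the 53 genes was -0.44, -0.38 and -0.36 in KO CL316243 mice, -0.35, 0.055 and -0.22 in KO saline mice, 0.32, 0.32 and 0.21 in WT CL316243 mice and 0.33, 0.35 and 0.15 in WT saline mice. The 6 KO values lay below the 6 WT values, with KO saline array 2 nearest to the WT arrays.

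Promoter windows of 5 genes are shown because the genes come from each complex and moved in one direction, to set their letters side by side. All are on the decreased side: Sdhd, Uqcrc1, Cox6a1 and Atp5e were lower in KO mice in both comparisons, and Cox8b had the largest decrease of the 53 after CL316243. Each window runs from 250 bases before to 50 bases after the annotated start and is read 5′ to 3′ on the strand of the gene, from RefSeq on build GRCm38.p6. The windows are chr9:50603800-50604099 on the minus strand for Sdhd, chr9:108936398-108936697 on the plus strand for Uqcrc1, chr5:115348909-115349208 on the minus strand for Cox6a1, chr2:174464052-174464351 on the minus strand for Atp5e and chr7:140900397-140900696 on the minus strand for Cox8b. Capitals mark matches, on either strand, to 4 motifs searched: GCGC, any 2 bases and GCGC again for NRF1, CCGGAAG for ETS factors such as GABPA, TNAAGGTCA for estrogen-related receptors (ERR) and AAGATGG for YY1.
Sdhd: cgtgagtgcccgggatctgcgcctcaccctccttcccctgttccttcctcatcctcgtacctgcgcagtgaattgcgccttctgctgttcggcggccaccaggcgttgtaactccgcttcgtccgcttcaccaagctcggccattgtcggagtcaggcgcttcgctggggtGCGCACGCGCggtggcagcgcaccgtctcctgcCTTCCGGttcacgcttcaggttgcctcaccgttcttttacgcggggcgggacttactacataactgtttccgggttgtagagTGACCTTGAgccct
Uqcrc1: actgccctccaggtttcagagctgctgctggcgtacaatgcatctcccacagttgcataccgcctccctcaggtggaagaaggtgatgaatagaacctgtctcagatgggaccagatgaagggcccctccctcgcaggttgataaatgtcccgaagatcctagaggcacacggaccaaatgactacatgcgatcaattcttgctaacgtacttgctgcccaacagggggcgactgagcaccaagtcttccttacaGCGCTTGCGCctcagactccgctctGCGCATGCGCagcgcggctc
Cox6a1: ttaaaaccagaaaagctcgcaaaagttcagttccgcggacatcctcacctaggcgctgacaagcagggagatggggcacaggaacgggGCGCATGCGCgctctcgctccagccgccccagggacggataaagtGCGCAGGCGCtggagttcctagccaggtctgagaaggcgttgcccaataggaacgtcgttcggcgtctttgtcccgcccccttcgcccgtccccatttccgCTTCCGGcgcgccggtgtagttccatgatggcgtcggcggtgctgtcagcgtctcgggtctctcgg
Atp5e: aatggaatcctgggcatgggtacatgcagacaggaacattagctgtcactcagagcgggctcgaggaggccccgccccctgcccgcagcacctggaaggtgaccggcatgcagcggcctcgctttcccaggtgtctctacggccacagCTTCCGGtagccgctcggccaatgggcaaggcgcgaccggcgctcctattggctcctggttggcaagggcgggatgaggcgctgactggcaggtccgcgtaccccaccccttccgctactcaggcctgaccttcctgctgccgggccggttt
Cox8b: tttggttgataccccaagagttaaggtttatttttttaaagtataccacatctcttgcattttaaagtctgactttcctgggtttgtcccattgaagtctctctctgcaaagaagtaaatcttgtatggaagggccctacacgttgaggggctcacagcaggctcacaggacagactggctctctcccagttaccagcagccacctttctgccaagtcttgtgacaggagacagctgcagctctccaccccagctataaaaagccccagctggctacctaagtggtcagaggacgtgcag

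In the Sdhd window the NRF1 match begins at -79, the ETS match at -46 and the ERR match at 37, counted from 1 at the first transcribed base with no 0. The Uqcrc1 window holds NRF1 matches at 6 and 31, the Cox6a1 window NRF1 matches at -162 and -117 and an ETS match at -16, and the Atp5e window an ETS match at -102. The Cox8b window holds none of these letters. Of the 55 genes, 42 matched an entry of the promoter table. An NRF1 match was present in 10 of the 42 (23.8%, against 7.00% of 27025 genes with a window of this length) and an ETS match in 18 (42.9%, against 9.93%). An ERR match was present in 2 (4.76%, against 1.43%) and a YY1 match in 5 (11.9%, against 7.28%). The windows shown are not typical of the 42. Sdhd was the only gene with NRF1, ETS and ERR matches together. Some genes not shown that were lower in KO mice in both comparisons, such as Cox5b, Cox7b, Uqcr10 and Cycs, had no match. No motif overlaps another by its letters in the windows shown. A match is a description of these letters, and nothing was measured at these sites.

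In complex II all 4 structural subunits were lower in KO mice in both comparisons, while of the 4 assembly factors 0 were called after saline and 2 after CL316243 (by limma; at an unadjusted p under 0.05, 2 lower and 0 higher after saline). Sdhd, one of the 2 membrane anchors that hold the complex in the inner membrane, had signals of 9.80, 9.91 and 9.96 in KO CL316243 mice, 10.00, 10.56 and 10.24 in KO saline mice, 10.88, 10.84 and 10.82 in WT CL316243 mice and 11.07, 11.16 and 10.80 in WT saline mice. All KO arrays lay below all WT arrays under either treatment. The difference was -0.74 ± 0.14 (adjusted p = 0.00837) after saline and -0.96 ± 0.14 (adjusted p = 0.000678) after CL316243, 1.67-fold and 1.94-fold lower. Sdha, the flavoprotein that oxidises succinate, stood at 9.47, 9.52 and 9.57 in KO CL316243 mice, 9.49, 9.85 and 9.70 in KO saline mice, 10.38, 10.35 and 10.23 in WT CL316243 mice and 10.06, 10.16 and 9.94 in WT saline mice. Its difference was -0.37 ± 0.10 (adjusted p = 0.0351) after saline and -0.80 ± 0.10 (adjusted p = 0.000333) after CL316243. The KO arrays lay below the WT arrays under either treatment, and the WT CL316243 arrays were all above the WT saline arrays.

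Sdhb, the iron-sulfur subunit that carries electrons from the flavin, was lower by 0.58 ± 0.11 after saline and by 0.68 ± 0.11 after CL316243 on the log2 scale. Sdhc, the other membrane anchor, had differences of -0.46 ± 0.11 (adjusted p = 0.0252) and -0.44 ± 0.11 (adjusted p = 0.0125). Among the assembly factors, Sdhaf1, which serves iron-sulfur insertion into Sdhb, had a difference of -0.40 ± 0.12 (adjusted p = 0.032) after CL316243. Sdhaf4, which binds the flavinylated Sdha before assembly, had -0.49 ± 0.11 (adjusted p = 0.00736). Sdhaf2, which serves the attachment of the flavin, had -0.10 ± 0.10 after saline and -0.10 ± 0.10 after CL316243, and Sdhaf3, another iron-sulfur factor, had -0.10 ± 0.11 and 0.05 ± 0.11, none of them called.

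In complex III 8 of 9 genes were called lower after saline and 9 of 9 after CL316243, at median differences of -0.68 and -0.96. Cyc1, the heme-bearing cytochrome c1, had signals of 8.44, 8.47 and 8.42 in KO CL316243 mice, 8.41, 9.06 and 8.60 in KO saline mice, 9.63, 9.53 and 9.54 in WT CL316243 mice and 9.36, 9.55 and 9.19 in WT saline mice. The KO CL316243 arrays spanned a narrow range, the KO saline arrays a wide one, and all 6 lay below every WT array. The difference was -0.68 ± 0.15 (adjusted p = 0.016) after saline and -1.12 ± 0.15 (adjusted p = 0.000435) after CL316243, 2.17-fold lower. Uqcrh, the hinge protein that joins cytochrome c1 to cytochrome c, had 8.73, 8.93 and 8.86 in KO CL316243 mice, 8.87, 9.38 and 9.04 in KO saline mice, 9.98, 9.92 and 9.54 in WT CL316243 mice and 10.05, 10.15 and 9.74 in WT saline mice. With -0.89 ± 0.16 (adjusted p = 0.00788) it had the largest difference of the complex after saline, and its difference after CL316243 was -0.98 ± 0.16 (adjusted p = 0.00142). The KO and WT arrays of Uqcrh did not overlap.

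Uqcrfs1, the Rieske iron-sulfur protein, was 1.62-fold lower after saline (-0.69 ± 0.20, adjusted p = 0.0491) and 2.09-fold lower after CL316243 (-1.06 ± 0.20, adjusted p = 0.00325). Its saline groups met at the edge: 8.04, 8.86 and 8.44 in KO saline mice, against 9.12, 9.45 and 8.86 in WT saline mice. Uqcrc1, a core protein whose promoter window with its pair of NRF1 matches is shown above, had signals of 8.68, 8.66 and 8.70 in KO CL316243 mice, 8.52, 9.26 and 8.96 in KO saline mice, 9.66, 9.74 and 9.52 in WT CL316243 mice and 9.65, 9.72 and 9.41 in WT saline mice. It was lower in KO mice by 0.68 ± 0.16 after saline and by 0.96 ± 0.16 after CL316243. The second core protein, Uqcrc2, had differences of -0.42 ± 0.12 (adjusted p = 0.0455) and -0.74 ± 0.12 (adjusted p = 0.00137). The small subunit Uqcrq had 7.87, 7.89 and 7.98 in KO CL316243 mice, against 8.78, 9.01 and 8.59 in WT CL316243 mice, groups that lay far apart relative to their spread. Uqcrb, the ubiquinone-binding protein, was the gene not called after saline (-0.34 ± 0.17, adjusted p = 0.203), and was called after CL316243 (-0.75 ± 0.17, adjusted p = 0.00819). Uqcr10 and Uqcr11, the smallest subunits, had -0.43 ± 0.12 and -0.86 ± 0.20 after saline and -0.69 ± 0.12 and -1.03 ± 0.20 after CL316243, each called.

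Cytochrome c itself, the mobile carrier between complexes III and IV encoded by Cycs, had signals of 12.81, 12.87 and 12.99 in KO CL316243 mice, 12.62, 13.19 and 12.97 in KO saline mice, 13.38, 13.28 and 13.25 in WT CL316243 mice and 13.44, 13.47 and 13.34 in WT saline mice. All KO arrays lay below all WT arrays of the same treatment. The difference was -0.49 ± 0.12 (adjusted p = 0.0303) after saline and -0.41 ± 0.12 (adjusted p = 0.0282) after CL316243. Cycs has processed copies elsewhere in the genome. Of its further rows, 5 exceeded the floor on low signal on 3 or more arrays. They gave differences between -0.94 and -0.40 after saline and between -1.10 and -0.62 after CL316243, lower in KO mice in each. The remaining row, which did not pass that floor, gave -0.24 and -0.79.

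**Figure D2:**
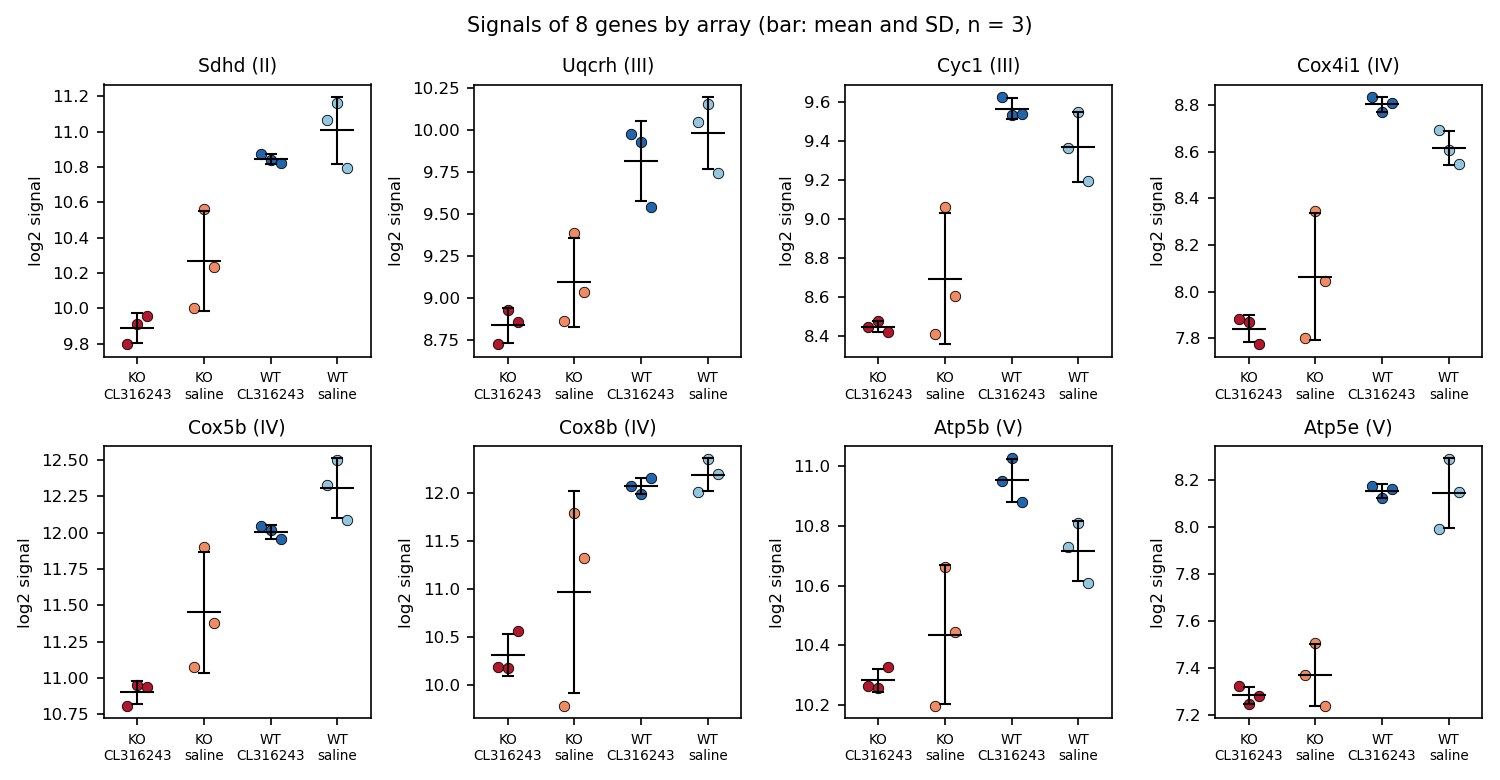
Log2 signal of 8 genes in each mouse, by group (points are arrays, bars the mean and SD, n = 3). The KO CL316243 points lie below the WT CL316243 points in each panel, and 1 KO saline point of Cox8b lies far below the other 2.

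In complex IV 10 of 21 tested genes were called lower after saline and 17 of 21 after CL316243. Of the 13 structural subunits 7 and 11 were called lower, and of the 8 assembly factors 3 and 6. Cox4i1, the common isoform of the regulatory subunit 4, had signals of 7.88, 7.87 and 7.77 in KO CL316243 mice, 7.80, 8.35 and 8.05 in KO saline mice, 8.83, 8.77 and 8.81 in WT CL316243 mice and 8.69, 8.61 and 8.55 in WT saline mice. KO and WT arrays did not overlap under either treatment, at -0.55 ± 0.12 (adjusted p = 0.015) after saline and -0.96 ± 0.12 (adjusted p = 0.000304) after CL316243. Cox5b, a subunit on the matrix side, had 10.81, 10.95 and 10.94 in KO CL316243 mice, 11.08, 11.90 and 11.38 in KO saline mice, 12.05, 12.01 and 11.95 in WT CL316243 mice and 12.33, 12.50 and 12.09 in WT saline mice. It was 1.80-fold lower after saline (-0.85 ± 0.17, adjusted p = 0.013) and 2.15-fold lower after CL316243 (-1.10 ± 0.17, adjusted p = 0.00117). Its partner on the matrix side, Cox5a, was called after CL316243 (-0.88 ± 0.20, adjusted p = 0.00867) and not after saline (-0.63 ± 0.20, adjusted p = 0.0676). The membrane subunits Cox7b and Cox7c had -0.74 ± 0.16 (adjusted p = 0.0157) and -0.67 ± 0.20 (adjusted p = 0.054) after saline, and -0.64 ± 0.16 (adjusted p = 0.0124) and -0.99 ± 0.20 (adjusted p = 0.00459) after CL316243.

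The tissue isoforms of complex IV were set side by side. Cox8b, the isoform of subunit 8 found in rodent heart, skeletal muscle and brown fat, had signals of 10.19, 10.18 and 10.56 in KO CL316243 mice, 9.79, 11.80 and 11.32 in KO saline mice, 12.07, 11.99 and 12.16 in WT CL316243 mice and 12.01, 12.36 and 12.20 in WT saline mice. The KO CL316243 arrays all lay more than 1 log2 unit below the WT arrays, and KO saline array 1 lay lower still while KO saline array 2 came close to the WT range. After CL316243 Cox8b was 3.39-fold lower in KO mice (-1.76 ± 0.38, adjusted p = 0.00627). After saline the difference was -1.22 ± 0.38 (adjusted p = 0.0613) and was not called. The general isoform Cox8a had -0.19 ± 0.10 (adjusted p = 0.256) after saline and -0.62 ± 0.10 (adjusted p = 0.00169) after CL316243. Its saline arrays were 9.49, 9.66 and 9.42 in KO saline mice, against 9.87, 9.74 and 9.51 in WT saline mice, and these groups overlap.

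Cox6a1, the general isoform of subunit 6a, whose window with NRF1 and ETS matches is shown above, had 10.38, 10.62 and 10.50 in KO CL316243 mice, 10.45, 10.97 and 10.75 in KO saline mice, 11.38, 11.44 and 11.29 in WT CL316243 mice and 11.35, 11.42 and 11.08 in WT saline mice, and was lower by 0.56 ± 0.13 and 0.87 ± 0.13 after saline and CL316243. The heart and skeletal muscle isoform Cox6a2 gave 10.03, 8.23 and 10.02 in KO CL316243 mice, 7.31, 9.58 and 9.59 in KO saline mice, 7.39, 8.84 and 7.89 in WT CL316243 mice and 8.34, 7.05 and 10.43 in WT saline mice. Its mice differed within each group by more than 1 log2 unit, and the groups overlapped throughout. The difference was 0.22 ± 0.87 (adjusted p = 0.885) after saline and 1.39 ± 0.87 (adjusted p = 0.238) after CL316243, neither called. The mean centred signal of 25 skeletal muscle markers was 1.34, -0.27 and 1.37 in KO CL316243 mice, -1.96, 1.09 and 0.89 in KO saline mice, -1.60, 0.35 and -0.75 in WT CL316243 mice and -0.34, -2.04 and 1.92 in WT saline mice. In 4 of 4 groups the array lowest for Cox6a2 was also the lowest for these markers, against 2 of 4 for Cox8b and 1 of 4 for Cox6a1. The full order of the 3 arrays was the same for Cox6a2 in 2 of the 4 groups. With that marker signal as a covariate the Cox6a2 difference after CL316243 was 0.14 ± 0.14 (adjusted p = 0.471).

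Of the other isoforms, Cox4i2, known from lung, was not called: its signals were 6.74, 6.68 and 7.03 in KO CL316243 mice, 6.88, 7.12 and 6.82 in KO saline mice, 6.93, 6.90 and 7.23 in WT CL316243 mice and 7.00, 7.08 and 6.97 in WT saline mice, with overlapping groups. Cox6b1, the general isoform of subunit 6b, had differences of -0.48 ± 0.12 (adjusted p = 0.0322) and -0.78 ± 0.12 (adjusted p = 0.0012). Cox6b2, best known from testis, was lower too, at -0.63 ± 0.13 (adjusted p = 0.0145) and -0.50 ± 0.13 (adjusted p = 0.0159). Its low signals were 6.26, 6.24 and 6.33 in KO CL316243 mice, 6.48, 6.80 and 6.32 in KO saline mice, 6.67, 6.71 and 6.96 in WT CL316243 mice and 6.98, 7.34 and 7.17 in WT saline mice. Cox7a2 had 7.56, 7.67 and 7.66 in KO CL316243 mice, 7.54, 7.97 and 7.79 in KO saline mice, 8.54, 8.45 and 8.31 in WT CL316243 mice and 8.34, 8.45 and 8.17 in WT saline mice, so that KO and WT arrays lay apart, at -0.56 ± 0.11 (adjusted p = 0.0135) and -0.80 ± 0.11 (adjusted p = 0.000708). The muscle and brown fat isoform Cox7a1 was not listed in the probe table used and was not analysed here, and Cox7a2l was measured by rows shared with other genes.

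Assembly factors of complex IV supply its heme and copper and guide its membrane subunits. Cox10, which with Cox15 makes the heme a of the complex, had signals of 7.27, 7.20 and 7.33 in KO CL316243 mice, 7.05, 7.26 and 7.11 in KO saline mice, 7.60, 7.72 and 7.75 in WT CL316243 mice and 7.59, 7.60 and 7.69 in WT saline mice. KO arrays lay below WT arrays under both treatments, at -0.49 ± 0.08 (adjusted p = 0.00578) after saline and -0.42 ± 0.08 (adjusted p = 0.00323) after CL316243. Cox15 had 7.69, 7.86 and 7.80 in KO CL316243 mice, 8.18, 8.14 and 8.17 in KO saline mice, 7.96, 8.01 and 7.67 in WT CL316243 mice and 8.67, 8.63 and 8.40 in WT saline mice. Both CL316243 groups and the KO saline group lay below the WT saline group, and the genotypes differed after saline (-0.40 ± 0.10, adjusted p = 0.033) with no call after CL316243 (-0.10 ± 0.10, adjusted p = 0.49). Among the copper chaperones, Cox17 was lower in both comparisons (-0.78 ± 0.19, adjusted p = 0.024 and -0.65 ± 0.19, adjusted p = 0.024), Cox11 was called after CL316243 (-0.35 ± 0.09, adjusted p = 0.0144) and Cox19 in neither. Cox14 and Cox20, which accompany newly made mitochondrially encoded subunits, were called after CL316243 at -0.82 ± 0.15 (adjusted p = 0.00225) and -0.38 ± 0.12 (adjusted p = 0.0377).

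Complex V had 8 of 14 genes called lower after saline and 11 of 14 after CL316243, with medians of -0.37 and -0.55. Of the F1 part, which here includes the central stalk, 3 of 5 subunits were called after saline and 5 of 5 after CL316243. Of the membrane Fo sector and peripheral stalk 5 of 9 and 6 of 9 were. Atp5e, the epsilon subunit of the central stalk, had 7.32, 7.25 and 7.28 in KO CL316243 mice, 7.37, 7.50 and 7.24 in KO saline mice, 8.18, 8.12 and 8.16 in WT CL316243 mice and 7.99, 8.29 and 8.15 in WT saline mice. The 6 KO arrays lay well below the 6 WT arrays, with little spread within groups. With -0.77 ± 0.09 (adjusted p = 0.00154) it had the lowest adjusted p of the 53 genes after saline, and after CL316243 it had -0.87 ± 0.09 (adjusted p = 0.000151), again the lowest.

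Atp5a1 and Atp5b encode the alpha and beta subunits that form the catalytic head. Atp5a1 had 9.91, 9.91 and 9.95 in KO CL316243 mice, 9.84, 10.33 and 10.05 in KO saline mice, 10.76, 10.75 and 10.69 in WT CL316243 mice and 10.53, 10.59 and 10.43 in WT saline mice, with differences of -0.45 ± 0.11 (adjusted p = 0.0257) and -0.81 ± 0.11 (adjusted p = 0.000498). Atp5b had 10.26, 10.26 and 10.33 in KO CL316243 mice, 10.20, 10.66 and 10.45 in KO saline mice, 10.95, 11.03 and 10.88 in WT CL316243 mice and 10.73, 10.81 and 10.61 in WT saline mice. Its saline groups overlapped and were not called (-0.28 ± 0.11, adjusted p = 0.118), whereas after CL316243 the groups lay apart (-0.67 ± 0.11, adjusted p = 0.00144). The rotor subunit gamma, Atp5c1, had -0.23 ± 0.14 (adjusted p = 0.295) and -0.55 ± 0.14 (adjusted p = 0.0137), and Atp5d, the delta subunit of the rotor, -0.40 ± 0.11 (adjusted p = 0.0393) and -0.56 ± 0.11 (adjusted p = 0.00359).

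Among the Fo and peripheral stalk subunits, Atp5j2 (subunit f), Atp5mpl and Atp5k (subunit e) were lower in both comparisons. Atp5j2 had 8.37, 8.30 and 8.25 in KO CL316243 mice, 8.37, 8.67 and 8.41 in KO saline mice, 9.09, 9.01 and 8.93 in WT CL316243 mice and 8.97, 9.03 and 8.76 in WT saline mice, at -0.44 ± 0.10 (adjusted p = 0.0211) and -0.70 ± 0.10 (adjusted p = 0.00076). Atp5md, a small subunit that stabilises the dimer, showed the largest decrease of complex V after CL316243, 2.11-fold (-1.08 ± 0.31, adjusted p = 0.0224), with -0.76 ± 0.31 (adjusted p = 0.129) after saline. Atp5pb, the b subunit of the peripheral stalk, was called after CL316243 (-0.50 ± 0.13, adjusted p = 0.0151). Atp5l (subunit g) was low and irregular at 6.97, 6.71 and 6.77 in KO CL316243 mice, 6.30, 6.85 and 6.86 in KO saline mice, 7.00, 7.51 and 6.92 in WT CL316243 mice and 6.53, 6.86 and 5.55 in WT saline mice, and 1 WT saline array lay far below the others. In this row the KO and WT arrays overlapped after each treatment. Rows of Atp5l shared with other symbols, at higher signals, gave -0.84 and -0.49 after saline and -0.91 and -0.58 after CL316243. Its further rows gave 0.17 and -0.36 after saline and -0.23 and -0.53 after CL316243.

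The ring of c subunits is encoded by Atp5g1, Atp5g2 and Atp5g3, whose mature proteins are identical. Atp5g2 had 11.09, 11.15 and 11.27 in KO CL316243 mice, 11.33, 11.58 and 11.55 in KO saline mice, 11.61, 11.66 and 11.74 in WT CL316243 mice and 11.90, 11.71 and 11.83 in WT saline mice and was lower in KO mice in both comparisons (-0.33 ± 0.09, adjusted p = 0.0422 and -0.50 ± 0.09, adjusted p = 0.0025). Atp5g3 was called after saline (-0.32 ± 0.09, adjusted p = 0.0458) and not after CL316243 (-0.09 ± 0.09, adjusted p = 0.452). Atp5g1 had 11.81, 11.11 and 11.84 in KO CL316243 mice, 10.84, 11.41 and 11.46 in KO saline mice, 10.02, 10.76 and 10.58 in WT CL316243 mice and 10.62, 10.03 and 12.03 in WT saline mice. After CL316243 the 3 KO arrays lay above the 3 WT arrays, at 1.14 ± 0.43 (adjusted p = 0.066), which was not called. Atp5g1 was the 1 gene of the 53 with this order after CL316243, where 21.7% of all tested genes had it. The array lowest for Atp5g1 was in 4 of 4 groups also the lowest for the muscle markers. For Atp5g2 this held in 3 of 4 groups and for Atp5g3 in 2 of 4. With the muscle signal as a covariate the Atp5g1 difference after CL316243 was 0.57 ± 0.19 (adjusted p = 0.0472). Another row assigned to Atp5g1 gave 0.63 after CL316243 and 0.076 after saline. With the mean of its rows the difference after CL316243 was 0.88 ± 0.30 (adjusted p = 0.0471). Atp5g1 was thus called higher in KO mice in these 2 alternative fits, with the covariate and with the mean of rows.

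**Figure D3:**
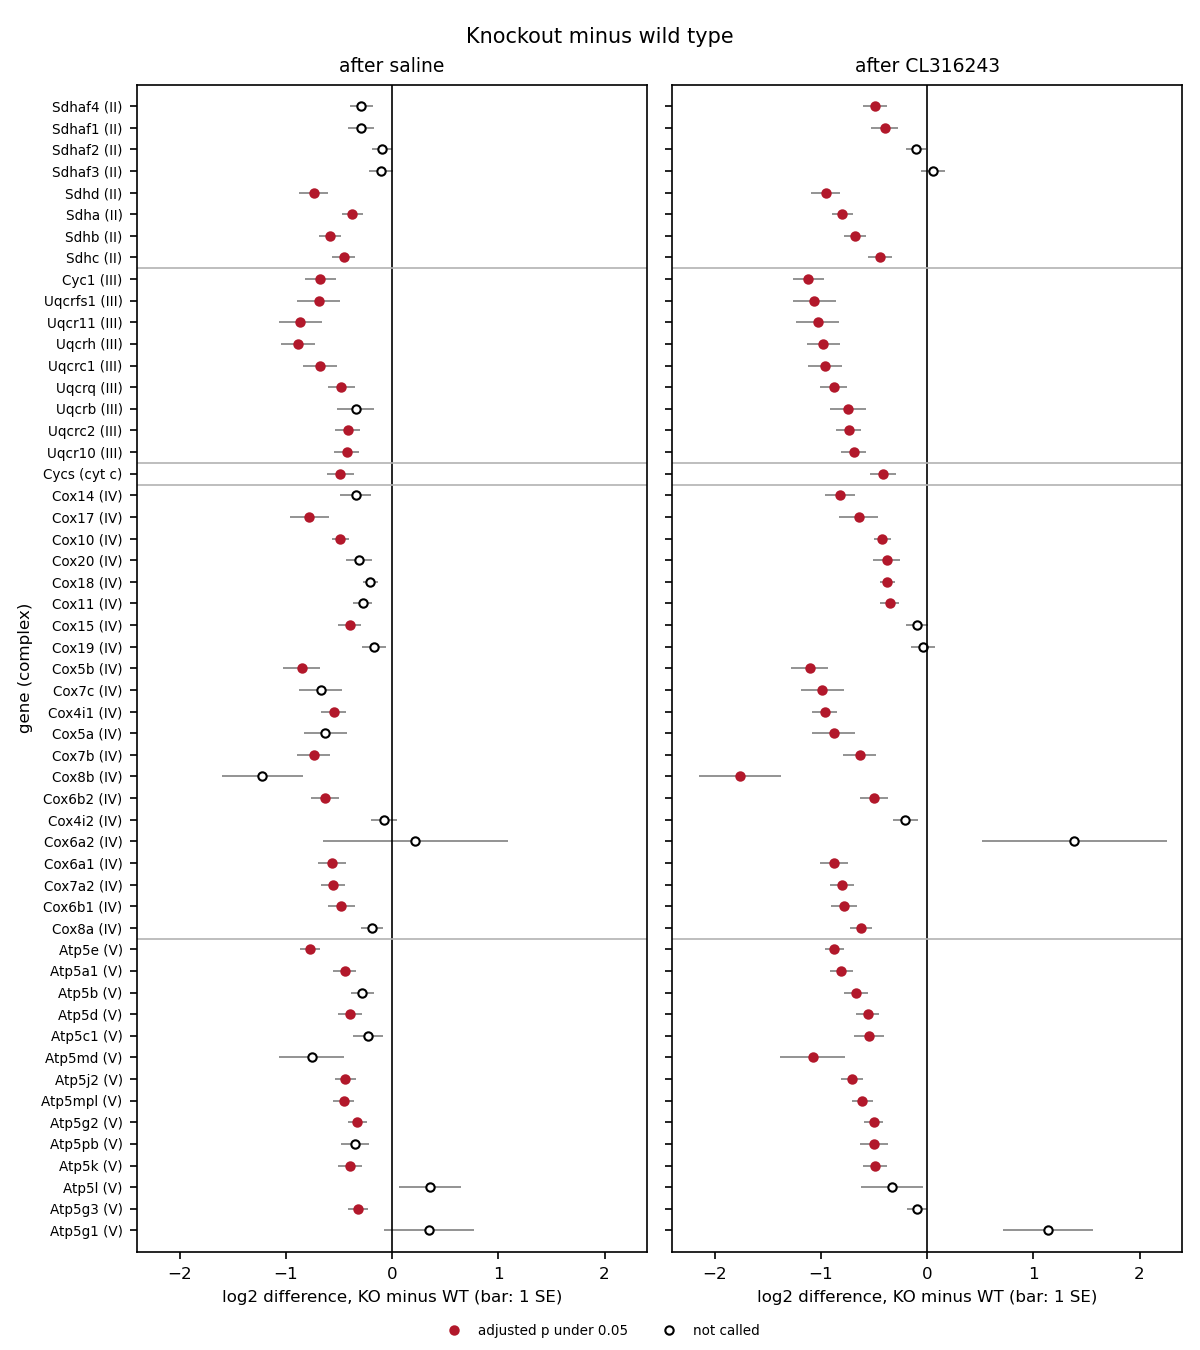
Difference between KO and WT group means for each of the 53 tested genes after saline (left) and after CL316243 (right), with bars of 1 SE (filled points have an adjusted p under 0.05). Most points lie left of 0 in both panels, 50 of 53 in each, and Cox6a2 and Atp5g1 lie right of 0 in both.

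Taking structural subunits and cytochrome c from all complexes, 28 of 41 were called lower after saline and 36 of 41 after CL316243, with median differences of -0.48 and -0.74. Of the 12 assembly factors 3 and 8 were called lower, with medians of -0.29 and -0.38. The gap between these classes was not tested. Further rows of the member genes that the rule did not use gave the same direction by count. Of 23 such rows above the floor on low signal on 3 or more arrays, 20 were lower in KO mice after saline and 21 after CL316243. Their medians were -0.56 and -0.76. A row of Sdhaf4 among them (-0.61 after saline) exceeded the floor only on the WT saline arrays, where it was highest. Of 20 rows shared between a member symbol and another gene, 19 and 19 were lower, with medians of -0.36 and -0.71. These rows came from the same 12 RNA samples. They include the symbols Atp5h, Atp5j, Atp5o, Cox16, Cox6c and Cox7a2l, for which no row of their own was available.

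The 3 h response to CL316243 within a genotype was small for these genes. In KO mice 0 genes were called higher by limma (1 higher and 15 lower at an unadjusted p under 0.05), against 7.75% of all tested genes, and 6 were called lower, against 10.2%, with a median difference, CL316243 minus saline, of -0.23 (-0.11 without KO saline array 2). In WT mice 1 was called higher, against 11.0%, and 4 lower, against 18.8%, with a median of -0.0037. The medians over all tested genes were -0.057 in KO and -0.071 in WT mice. Centring each array on its median changed the shares of calls over all tested genes that were higher, to 58.8% in KO mice (43.2% as deposited) and 60.3% in WT mice (36.8% as deposited), and the all-gene median in WT mice to 0.043. Among the 53 genes 2 were then called lower in KO mice, and 5 higher and 1 lower in WT mice.

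Of the 5 genes called in WT mice 4 were assembly factors. Cox18, which helps to insert a mitochondrially encoded subunit into the membrane, was higher after CL316243. Its arrays were 7.55, 7.56 and 7.61 in KO CL316243 mice, 7.39, 7.40 and 7.44 in KO saline mice, 8.04, 7.86 and 7.95 in WT CL316243 mice and 7.65, 7.64 and 7.54 in WT saline mice, with each CL316243 group above its saline group. The difference was 0.17 ± 0.07 (adjusted p = 0.133) in KO mice, not called, and 0.34 ± 0.07 (adjusted p = 0.00494) in WT mice. Cox15 fell after CL316243 in both genotypes, by 0.38 ± 0.10 in KO and 0.68 ± 0.10 in WT mice on the log2 scale, and so did Sdhaf1, by 0.53 ± 0.12 in KO and 0.42 ± 0.12 in WT mice. Sdhaf1 had signals of 7.80, 7.84 and 7.89 in KO CL316243 mice, 8.28, 8.46 and 8.39 in KO saline mice, 7.95, 8.53 and 8.25 in WT CL316243 mice and 8.61, 8.76 and 8.63 in WT saline mice. Sdhaf3 had -0.23 ± 0.11 in KO mice, not called, and was called lower in WT mice (-0.39 ± 0.11, adjusted p = 0.0246). Cox6b2 had -0.25 ± 0.13 in KO mice, not called, and was called lower in WT mice (-0.38 ± 0.13, adjusted p = 0.0488).

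In KO mice the other genes called lower after CL316243 were Sdhaf4 (-0.35 ± 0.11, adjusted p = 0.0489), Cox5b (-0.55 ± 0.17, adjusted p = 0.049), Atp5c1 (-0.53 ± 0.14, adjusted p = 0.0241) and Atp5g2 (-0.32 ± 0.09, adjusted p = 0.0352). The call depended on single arrays: the count ran between 0, without KO CL316243 array 1, and 9, without KO saline array 1. It was 1 without KO saline array 2, 2 without KO saline array 3 or KO CL316243 array 3, and 3 without KO CL316243 array 2 or WT CL316243 array 2.

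**Figure D4:**
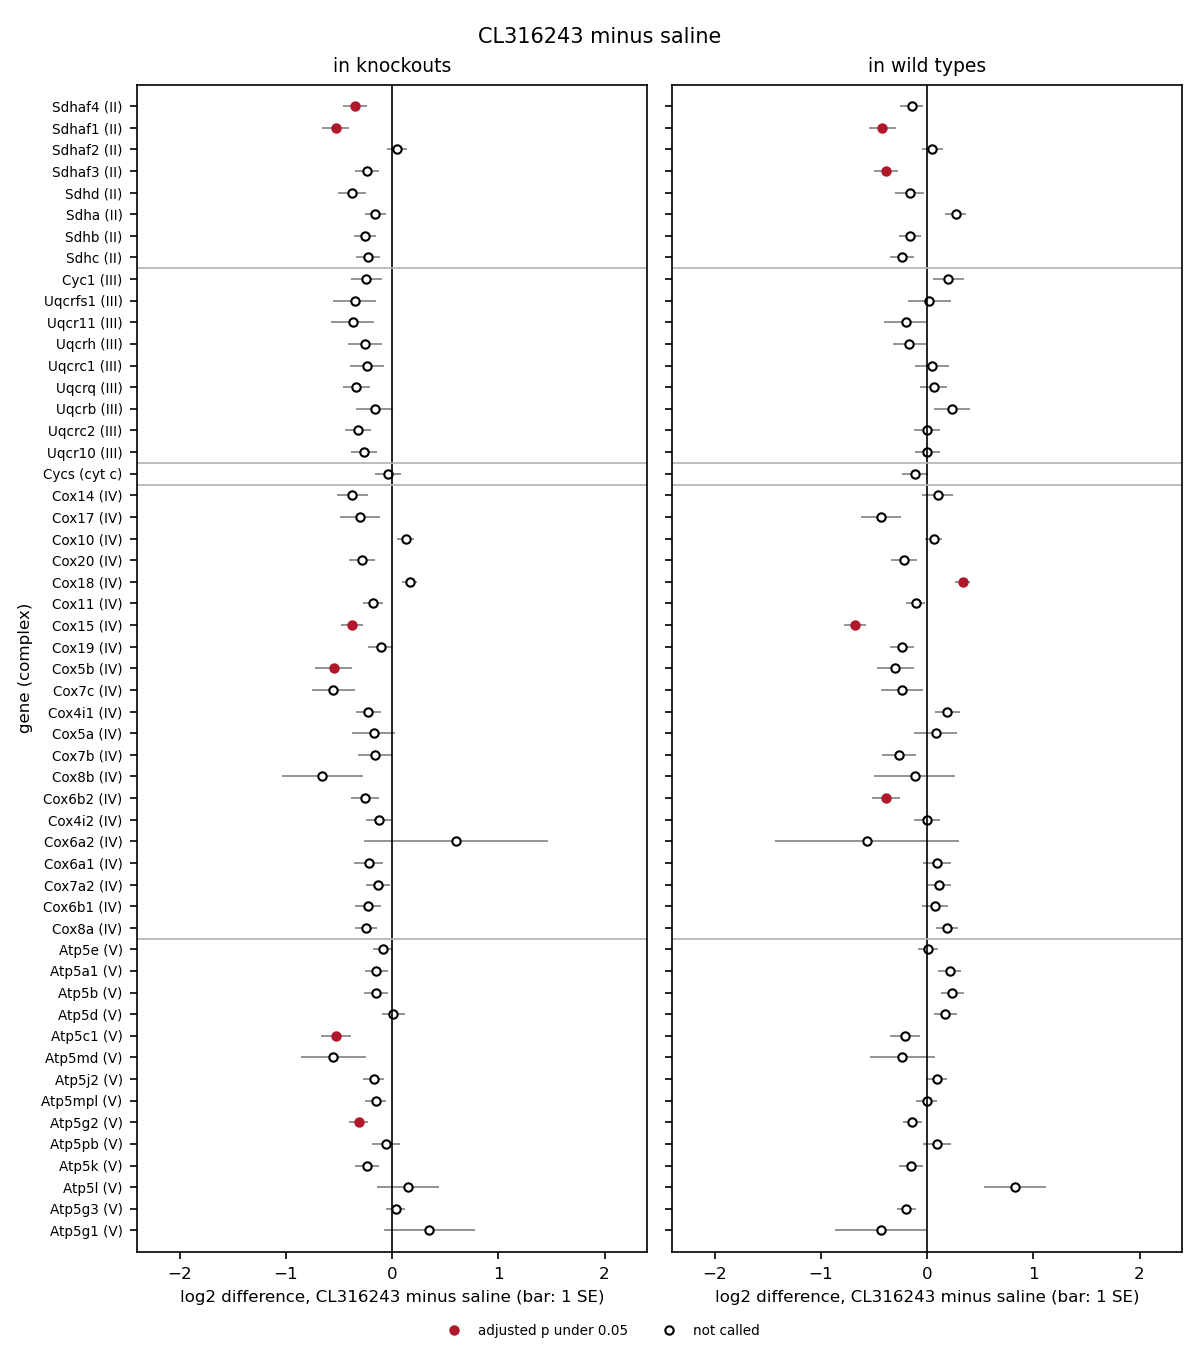
Difference between CL316243 and saline group means for each of the 53 tested genes in KO mice (left) and in WT mice (right), with bars of 1 SE (filled points have an adjusted p under 0.05). Points in KO mice lie mostly left of 0, 45 of 53, while points in WT mice lie on both sides, 28 of 53 left of 0.

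Whether the response to CL316243 differed between the genotypes was tested by the interaction, the CL316243 effect in KO mice minus that in WT mice. By limma 0 of the 53 genes were called (7 lower and 0 higher at an unadjusted p under 0.05), against 2.04% of all tested genes called in either direction. The estimate was below 0 for 41 of 53 genes, with a median of -0.18, where the median over all tested genes was 0.011. The 7 genes with an unadjusted p under 0.05 were Sdha (-0.43 ± 0.14, adjusted p = 0.154), Uqcrq (-0.40 ± 0.18, adjusted p = 0.308), Cox14 (-0.48 ± 0.21, adjusted p = 0.282), Cox4i1 (-0.41 ± 0.16, adjusted p = 0.245), Cox8a (-0.43 ± 0.15, adjusted p = 0.169), Atp5a1 (-0.36 ± 0.15, adjusted p = 0.274) and Atp5b (-0.39 ± 0.15, adjusted p = 0.241). The gap between genotypes was thus wider after CL316243 in most estimates, and that widening was not called for any single gene. Without KO saline array 2 the median was -0.067. Without KO saline array 1, Cox8b was called, at -1.13 (adjusted p = 0.0374).

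Of 32 tested subunits of complex I, which feeds electrons from NADH into the chain, 26 were called lower in KO mice after saline and 32 after CL316243, with median differences of -0.57 and -0.75. Ndufs6, an accessory subunit, had -0.78 ± 0.11 (adjusted p = 0.00341) and -0.92 ± 0.11 (adjusted p = 0.000333), and Ndufb11 had -0.69 ± 0.10 (adjusted p = 0.00359) and -0.88 ± 0.10 (adjusted p = 0.000253). Of 24 tested assembly factors of complexes III to V outside the symbol rule, 12 and 15 were called lower. Hccs, which attaches heme to cytochromes c and c1, had -0.78 ± 0.11 (adjusted p = 0.000708) after CL316243. Ttc19, a complex III assembly factor, rose with CL316243 in KO mice (0.37 ± 0.10, adjusted p = 0.0225) and in WT mice (0.82 ± 0.10, adjusted p = 0.000167), and was lower in KO mice after CL316243 (-0.66 ± 0.10, adjusted p = 0.000815).

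Atpif1, the inhibitor of the ATP synthase, had signals of 9.14, 9.22 and 9.12 in KO CL316243 mice, 9.36, 9.15 and 9.42 in KO saline mice, 8.37, 8.33 and 8.57 in WT CL316243 mice and 9.03, 9.02 and 9.04 in WT saline mice. The WT CL316243 arrays lay below all others, and the KO arrays lay above the WT arrays of the same treatment. CL316243 lowered it in WT mice (-0.61 ± 0.09, adjusted p = 0.000713), and it was 1.67-fold higher in KO than in WT mice after CL316243 (0.74 ± 0.09, adjusted p = 0.00032). After saline the difference was 0.28 ± 0.09 (adjusted p = 0.0646), and in the interaction 0.45 ± 0.13 (adjusted p = 0.1), neither called. Of the 8 tested genes in its list, Ndufa4, a subunit of complex IV despite its name, was lower in both comparisons (-0.60 ± 0.12, adjusted p = 0.0132 and -0.63 ± 0.12, adjusted p = 0.00373).

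Among 19 tested regulators of mitochondrial genes, 4 were called lower and 1 higher in KO mice after saline, and 8 lower and 1 higher after CL316243. Ppargc1a, a coactivator of respiratory genes induced by adrenergic signals, had signals of 9.76, 9.84 and 9.84 in KO CL316243 mice, 6.70, 7.87 and 6.97 in KO saline mice, 11.57, 11.53 and 11.27 in WT CL316243 mice and 7.32, 7.45 and 7.07 in WT saline mice. All CL316243 arrays lay above all saline arrays, 6.22-fold higher in KO mice (2.64 ± 0.24, adjusted p = 0.000139) and 18.05-fold higher in WT mice (4.17 ± 0.24, adjusted p = 2.52e-06), and the genotypes did not overlap after CL316243 (-1.64 ± 0.24, adjusted p = 0.000757). After saline the difference was -0.11 ± 0.24 (adjusted p = 0.791). Esrra, the receptor for which the ERR motif is named, had 7.56, 7.57 and 7.59 in KO CL316243 mice, 7.91, 8.05 and 7.89 in KO saline mice, 8.40, 8.54 and 8.59 in WT CL316243 mice and 8.55, 8.57 and 8.16 in WT saline mice, and was lower in KO mice at -0.48 ± 0.11 (adjusted p = 0.0195) and -0.94 ± 0.11 (adjusted p = 0.000253). Gabpa, an ETS factor, was called after CL316243 (-0.57 ± 0.11, adjusted p = 0.00337). Nrf1 was not called between genotypes by limma, at 0.07 ± 0.07 (adjusted p = 0.501) and -0.0016 ± 0.07 (adjusted p = 0.989), and was higher after CL316243 in KO (0.26 ± 0.07, adjusted p = 0.0243) and WT mice (0.34 ± 0.07, adjusted p = 0.0042). Tfam, which packages mitochondrial DNA, had -0.23 ± 0.13 (adjusted p = 0.243) and 0.03 ± 0.13 (adjusted p = 0.854) between genotypes, not called, and fell with CL316243 in WT mice (-0.44 ± 0.13, adjusted p = 0.0227).

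**Figure D5:**
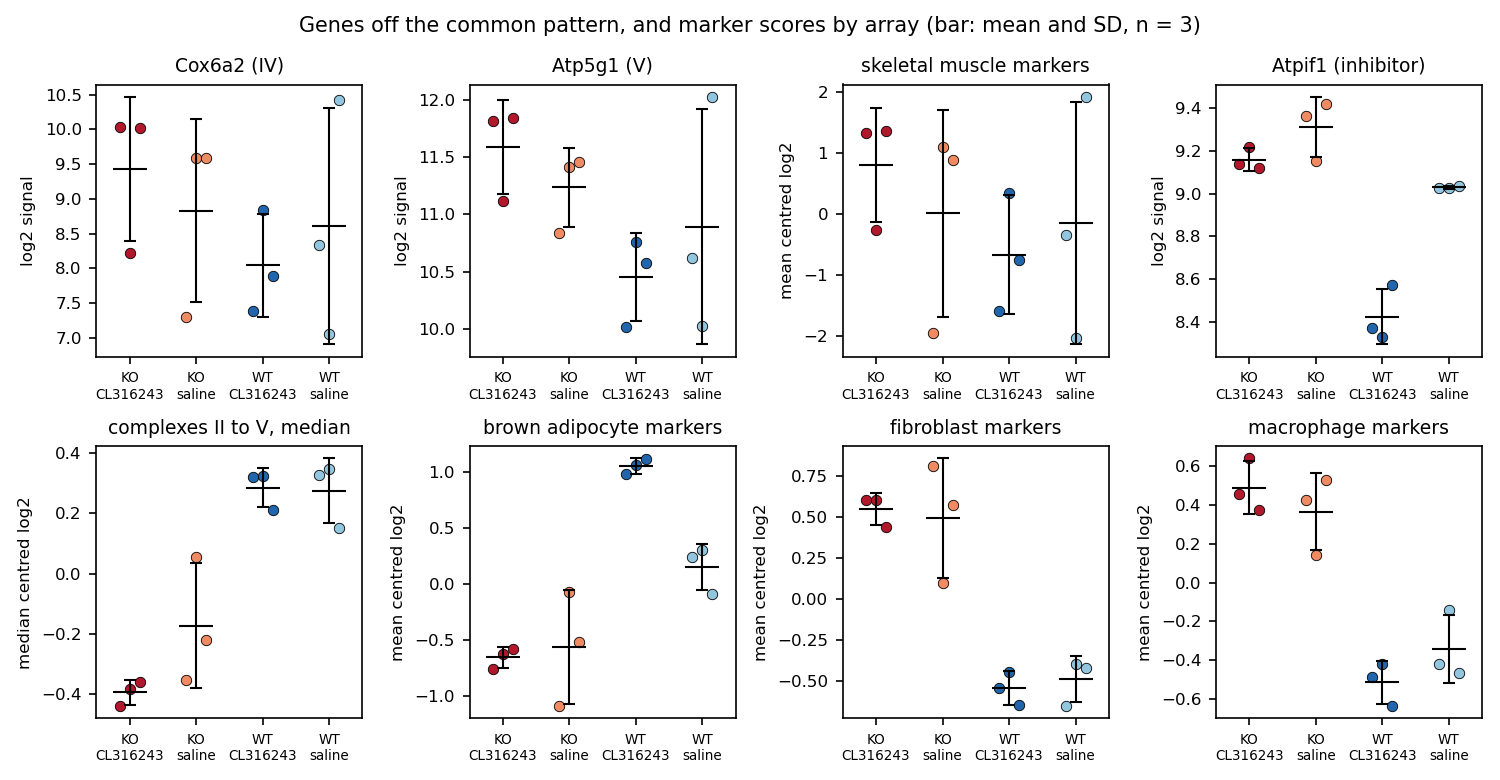
Signals of Cox6a2, Atp5g1 and Atpif1, and centred signals of the 53 genes and of marker lists, in each mouse by group (points are arrays, bars the mean and SD, n = 3). The skeletal muscle markers spread within every group, as do Cox6a2 and Atp5g1, while the fibroblast and macrophage markers are higher and the 53 genes lower in KO mice.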

How the data were processed

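The members and the gene lists were chosen with earlier results of these data known. RNA from 12 mice was labelled and read on 12 arrays, 1 per mouse, as the labels give it. The deposited log2 signals are array values; the submitters' processing notes list RMA, Partek and build mm9, and software versions are not given in the sources used here. They entered the fit as the authors left them. Of 115830 table rows, 25539 belong to 1 gene in the probe table used, 2300 to several and 87991 are not listed. Only rows of 1 gene were used, the row with the highest mean per gene.

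Group means over all 12 arrays were fitted in limma 3.58.1 (R 4.3.3) with lmFit and eBayes, 8 residual degrees of freedom and Benjamini-Hochberg adjustment at 0.05 over 15896 genes within each of 5 contrasts. A gene entered the test if, on 3 or more arrays, it exceeded the 25th percentile of the named genes. The fit was tested on simulated data. The number of arrays limits the precision. No label pairs mice or gives a batch. Promoter windows came from RefSeq on GRCm38.p6 and were searched by letters alone. A marker score is the mean over a list's tested genes of the log2 signal minus the gene's mean over the 12 arrays.

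All members could be named. Values in every array are given for called members, up to 6 per complex and contrast by lowest adjusted p, and for isoform pairs of complex IV. Genes outside the members were named if they were set regulators or among the 3 lowest adjusted p of a list. Some called members are given by their differences alone. The alternatives tried were array centring, quantile normalization, other floors and thresholds, the mean of a gene's rows, moderation, array weights, a replicate block, a muscle covariate, the compared groups alone and leaving out each array.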

Additional observations from a re-analysis of the deposited data

Results flagged for a closer look

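Differences in the response to CL316243 between the genotypes were looked for among the 53 genes of complexes II to V and the genes of the lists, by the limma interaction. Of the 53 genes 0 were called (7 lower at an unadjusted p under 0.05), against 2.04% of all tested genes. Ppargc1a rose less in KO mice than in WT mice: the log2 difference, CL316243 minus saline, was 2.64 ± 0.24 in KO mice and 4.17 ± 0.24 in WT mice (SE, n = 3 mice per group), and the interaction was -1.54 ± 0.33 (adjusted p = 0.0433). It was the 1 regulator of 19 called.

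The other called genes belong to the marker lists, and those not named above were chosen after their values were seen. Among brown adipocyte markers, Prdm16, a transcription factor of brown fat identity, had -0.58 ± 0.11 in KO mice and 1.36 ± 0.11 in WT mice, with an interaction of -1.95 ± 0.16 (adjusted p = 0.000226). Elovl3, a fatty acid elongase, had 1.47 ± 0.24 in KO mice and 3.36 ± 0.24 in WT mice (interaction -1.89 ± 0.34, adjusted p = 0.02). Ebf2, another transcription factor of brown fat, had an interaction of -0.86 ± 0.13 (adjusted p = 0.00886), and Kcnk3, a potassium channel, of -1.15 ± 0.20 (adjusted p = 0.0176). Among macrophage markers, Cd14, a receptor for bacterial lipopolysaccharide, had 0.97 ± 0.15 in KO mice and -0.40 ± 0.15 in WT mice (interaction 1.36 ± 0.21, adjusted p = 0.0102). Groups of 3 mice are too small for a search for single outlying mice.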

How the results depend on the processing

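No called gene of complexes II to V changed direction under any of the 25 alternatives, and after CL316243 32 of the 44 genes lower in KO mice were called under each of them. After saline that held for 2 of 31 genes, Atp5e and Cox10, for 2 of 5 called after CL316243 in WT mice, Cox15 and Cox18, and for 0 of 6 in KO mice. Fitting only the groups compared gave 4 genes in KO against WT mice after saline (31 as reported) and 2 for CL316243 in WT mice (5 as reported). An adjusted p under 0.01 gave 5 after saline, 2 for CL316243 in WT mice and 0 in KO mice (6 as reported), where an adjusted p under 0.1 gave 11 and centred arrays gave 2. Array weights gave 1 gene in the interaction, Sdha (0 as reported). The muscle score as a covariate together with leaving out KO saline array 1, an alternative chosen after seeing the data, gave 3 genes after saline, 11 for CL316243 in KO mice and 1, Cox8b, in the interaction. Leaving out each array in turn gave between 7 and 35 genes after saline and 37 and 45 after CL316243. Of the latter, 37 to 44 were lower and 0 or 1 higher. For CL316243 it gave between 3 and 6 in WT mice (3 without WT CL316243 array 1 or 2) and 0 and 9 in KO mice. In the interaction it gave 0 or 1. After CL316243, 1 gene was also called higher in KO mice with the mean of a gene's rows, the compared groups alone or array weights. The same held with the muscle covariate or an adjusted p under 0.1. With the mean of a gene's rows, the muscle covariate and an adjusted p under 0.1 the gene was Atp5g1. The cause of these shifts was not tested, beyond the fewer arrays that some of these fits hold. No label says whether replicate numbers pair the mice. Of 18 same-numbered pairs of arrays 7 correlated above 0.1 in their deviations from the group means (range -0.298 to 0.476). Differently numbered pairs reached 0.408, so this check cannot decide whether mice were paired. With the replicate block 29 genes were called lower after saline, 44 lower and 1 higher after CL316243, 2 higher and 3 lower for CL316243 in WT mice, 6 lower in KO mice and 0 in the interaction. The median differences ranged over -0.54 to -0.33 after saline and -0.72 to -0.57 after CL316243. For CL316243 against saline they ranged over -0.30 to -0.11 in KO mice and over -0.072 to 0.11 in WT mice, where the sign is unsettled, and in the interaction over -0.26 to -0.067.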

Other observations

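Further genes tied to respiration differed between the genotypes after CL316243. Ppara, the nuclear receptor for fatty acids that drives genes of fatty acid oxidation, had signals of 9.92, 9.80 and 9.69 in KO CL316243 mice and 12.33, 12.22 and 11.98 in WT CL316243 mice, groups far apart, at a log2 difference of -2.37 ± 0.31 (SE, limma adjusted p = 0.000445). After saline its difference was -0.86 ± 0.31 (adjusted p = 0.0962), and the interaction, -1.51 ± 0.44 (adjusted p = 0.111), was not called. Esrrg, a receptor of the same family as Esrra, was lower in KO mice after CL316243 at -1.18 ± 0.17 (adjusted p = 0.000664), and the coactivator Ppargc1b at -1.18 ± 0.30 (adjusted p = 0.0136). Tfb2m, a transcription factor of mitochondrial DNA, was lower in KO mice after saline (-0.69 ± 0.11, adjusted p = 0.00598), and Nrip1, a corepressor of nuclear receptors, was higher (0.64 ± 0.12, adjusted p = 0.00999).

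Higd1a and Higd2a, small proteins that associate with complexes III and IV, were lower in KO mice in both comparisons. Higd2a had 9.54, 9.56 and 9.89 in KO CL316243 mice and 10.51, 10.55 and 10.32 in WT CL316243 mice, without overlap, at -0.80 ± 0.11 (adjusted p = 0.000644). Higd1a had -0.65 ± 0.15 (adjusted p = 0.0225) after saline and -0.83 ± 0.15 (adjusted p = 0.00272) after CL316243. Of 8 tested endothelial markers, 0 were called between the genotypes after saline by limma (1 lower at an unadjusted p under 0.05). After CL316243 4 were called lower in KO mice, against 14.8% of all tested genes. Among them was Kdr, a receptor for vascular endothelial growth factor (-0.59 ± 0.11, adjusted p = 0.00289). CL316243 itself raised 6 and lowered 1 of the 8 in WT mice, with a median of 0.51. In KO mice it raised 3 and lowered 1, with a median of 0.32. In the interaction 0 were called by limma (2 lower at an unadjusted p under 0.05).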
